A study of Mus musculus with 17 samples.

Results

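The genes described here encode 9 neuronal potassium channel subunits, namely the inward rectifiers Kcnj2, Kcnj3, Kcnj4, Kcnj6 and Kcnj9 and the leak channels Kcnk1, Kcnk2, Kcnk3 and Kcnk9. They were chosen by symbol, each symbol matched 1 gene of the 55450 counted in the deposited files, and all 9 were among the 17615 genes with enough reads to be tested. Expression was measured by RNA-seq of polyadenylated RNA in 17 hippocampal libraries from adult C57BL/6J mice. The epileptic sgLacZ group held 6 libraries from mice injected with kainic acid, which activates glutamate receptors, in the right amygdala. The injection sets off status epilepticus and later spontaneous seizures, and serves as a model of temporal lobe epilepsy. The epileptic sgKcna1 group held 6 libraries from mice made epileptic in the same way, and the control sgLacZ group held 5 libraries from sham-treated mice without epilepsy. Mice of every group, controls included, carried adeno-associated viruses in the right ventral hippocampus and were later fed doxycycline. The viruses encoded dCas9 fused to the activator VP64 under a doxycycline-inducible promoter, together with a guide RNA. The inducer was driven in forebrain excitatory neurons, so that only part of the cells in each hippocampus could carry the active system. The guide sgKcna1 directs dCas9 to the promoter of Kcna1, the gene of the firing-limiting potassium channel Kv1.1, and sgLacZ has no target in the mouse genome. No library of control mice with sgKcna1 was analysed here, and what the guide does without epilepsy cannot be told apart from what it does in epilepsy.

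Inward rectifiers pass potassium more readily into the cell than out of it, and so hold the membrane near its resting potential while letting it depolarise once excitation is strong. Kcnj2 and Kcnj4 encode Kir2.1 and Kir2.3, which are open near rest in the presence of the membrane lipid PIP2. Kcnj3, Kcnj6 and Kcnj9 encode GIRK1, GIRK2 and GIRK3, subunits of channels that open when Gi/o-coupled receptors such as the GABA-B receptor release G protein βγ subunits, and that produce slow inhibition in hippocampal pyramidal and granule cells. The two-pore leak channels Kcnk1 (TWIK-1), Kcnk2 (TREK-1), Kcnk3 (TASK-1) and Kcnk9 (TASK-3) carry background current. TREK-1 is opened by stretch, heat and polyunsaturated lipids, and the TASK channels are closed by extracellular acid and by Gq-coupled receptors.

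Libraries held between 11839240 and 28311328 reads in genes. CPM are read counts per library total, scaled between libraries by TMM except for the floor of detection and for Xist and Y-linked reads. That floor, taken as 3 reads in a gene, equalled 0.106 to 0.253 CPM without the scaling. This floor covers counting error only. The labels do not say that replicates came from separate animals, so p-values measure the spread between these libraries. Kcna1, the gene the guide targets, had 25.5 to 44.0 CPM in controls, 16.9 to 56.7 in epileptic sgLacZ and 13.9 to 132.5 in epileptic sgKcna1 libraries, where replicate 12 held 132.5 and the next highest 29.5. Its log2 fold change between the epileptic groups was 0.32 ± 0.47 (SE, edgeR quasi-likelihood test, adjusted p = 0.706). Without replicate 12 it was -0.65, and it was also negative with limma voom (-0.31), percent unmapped as a covariate (-0.85) and without the libraries holding both Xist and Y-linked reads (-0.50), so Kcna1 does not check the labels of the sgKcna1 libraries. Replicate 12 of epileptic sgKcna1 also had the fewest reads in genes and 41.5% unmapped reads, against 11.0% to 27.7% in the other libraries. Replicate 5 of epileptic sgLacZ lay within or next to the control range for most of the genes below. Control replicate 16 and epileptic sgKcna1 replicates 1, 11 and 12 held both Xist, which marks female cells, and Y-linked reads above 5 CPM. By the higher of these, 2 of 5 control, 4 of 6 epileptic sgLacZ and 2 of 6 epileptic sgKcna1 libraries were female. Every marker gene in the lists for 13 cell types was above 0 in every library, and every list passed the filter on low counts in full. Summed markers of GABAergic interneurons covered 1224 to 1532 CPM in controls and 819 to 1380 in epileptic sgLacZ libraries, astrocyte markers 931 to 1011 and 1025 to 1472, choroid plexus markers 1202 to 12561 and 4446 to 11491, and oligodendrocyte markers 6523 to 9411 and 4941 to 7248. In epileptic sgKcna1 libraries the 4 sums covered 995 to 1464, 983 to 1318, 293 to 7849 and 2750 to 10555 CPM in the same order. Markers of all neurons covered 5254 to 5574 CPM in controls, 4956 to 5283 in epileptic sgLacZ and 5116 to 6007 in epileptic sgKcna1 libraries. Those of excitatory neurons covered 2972 to 3480, 3135 to 5173 and 3126 to 4089 CPM. Between epileptic sgLacZ and control libraries 0 of 6 GABAergic, 0 of 6 oligodendrocyte, 0 of 6 choroid plexus and 2 of 5 astrocyte markers passed the edgeR test, beside 11% of all genes. Among the other lists 1 of 5 excitatory neuron, 1 of 6 dentate granule cell, 1 of 4 CA1 and 1 of 6 microglia markers passed, all higher. In the CA3 list 1 of 5 passed, which was lower. No marker of all neurons, oligodendrocyte precursors, vascular cells or thalamus passed. In bulk tissue fewer cells of a type and less RNA per cell cannot be told apart, and the part of cell composition in the results below was not tested.

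The sequence before the start of transcription is shown for the GIRK subunit genes Kcnj6 and Kcnj9, which had the highest fold changes of the 9 in epileptic sgLacZ hippocampus, and whose RefSeq start is also the end of the annotated gene. Each window runs 250 bases up to the base before the start, on GRCm38.p6, with the letters of any of 5 searched motifs in capitals.
Kcnj6 (chr16:94997697-94997946, minus strand): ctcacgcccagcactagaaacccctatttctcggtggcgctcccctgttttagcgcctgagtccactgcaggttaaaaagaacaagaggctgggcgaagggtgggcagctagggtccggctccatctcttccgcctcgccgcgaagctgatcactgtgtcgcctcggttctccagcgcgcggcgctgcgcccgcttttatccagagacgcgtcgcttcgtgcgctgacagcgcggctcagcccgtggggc
Kcnj9 (chr1:172329323-172329572, minus strand): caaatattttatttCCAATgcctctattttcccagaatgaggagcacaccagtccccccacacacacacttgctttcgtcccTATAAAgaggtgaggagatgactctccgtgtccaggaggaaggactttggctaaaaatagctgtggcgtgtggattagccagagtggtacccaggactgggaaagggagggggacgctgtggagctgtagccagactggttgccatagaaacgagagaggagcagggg
The motifs, searched on both strands, were TGACG (the core of the cAMP response element), GGGCGG (the GC box), CCAAT (the box of that name), TATAAA (the TATA box) and CACGTG (an E box). Of 32851 windows of this length in the promoter table, 17.8% held TGACG, 33.8% CCAAT, 32.7% GGGCGG, 12.4% TATAAA and 6.02% CACGTG. The Kcnj9 window held CCAAT and TATAAA once each and was 52% G or C, against a median of 52.4% over all windows. The Kcnj6 window held none of the 5 and was 64% G or C. A second start listed for Kcnj6 lies inside the gene (window chr16:94856691-94856940), and its window, not printed, held GGGCGG once. A start was listed for 7 of the 9 genes. The starts listed for Kcnk2 lie inside the annotated gene, chr1:189207930-189402782, so no window is printed for it. A motif match is a description of the letters, and these libraries do not show which start was used.

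On GRCm38.p6 the inward rectifier genes lie at chr11:111066164-111076825 (Kcnj2), chr2:55411798-55598145 (Kcnj3), chr15:79480226-79512511 (Kcnj4), chr16:94744980-94997696 (Kcnj6) and chr1:172320508-172329322 (Kcnj9). The leak channel genes lie at chr8:125993655-126030685 (Kcnk1), chr1:189207930-189402782 (Kcnk2), chr5:30588170-30625270 (Kcnk3) and chr15:72501873-72548614 (Kcnk9). Counts are of reads assigned to the exons of each gene. In RefSeq only Kcnk2 and Kcnk3 overlap another gene, and overlaps in the annotation behind the counts were not tested. Summing the strand columns raised the reads of Kcnj6 (ratio 1.63), Kcnk1 (1.21), Kcnj3 (1.08) and Kcnj9 (1.07), which have no RefSeq overlap. The ratio was 1.28 for Kcnk2 and 1.05 for Kcnk3, and at or near 1 for Kcnj2, Kcnj4 and Kcnk9. For these genes without a RefSeq overlap the cause of a ratio above 1 was not tested.

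Scaled by exon length, Kcnj4 was the most abundant of the 9 transcripts in controls and Kcnj6 the least. In epileptic sgLacZ libraries Kcnj6 (1.67 ± 1.01 CPM per kb, SD, n = 6) and Kcnj2 (1.46 ± 0.338) lay within their spread of each other. In control libraries Kcnj4 had 61.1 ± 3.05 CPM per kb (SD, n = 5), far above the next. Kcnk1 (24.8 ± 3.84), Kcnk9 (23.1 ± 3.46), Kcnj3 (23.1 ± 1.57) and Kcnk2 (21.5 ± 1.84) followed within their spread of each other, all in CPM per kb. Kcnj9 stood lower at 16.3 ± 2.02 CPM per kb, Kcnk3 at 5.42 ± 0.538, Kcnj2 at 1.38 ± 0.136 and Kcnj6 at 0.574 ± 0.195, and each of these 4 was separated from its neighbours by more than the SDs. The level of Kcnk9 is taken over 1209 annotated bases, its coding length, and is therefore not scaled like the others. All these levels rest on unstranded counts, which fell short of the summed strand counts by unlike amounts. The order on summed counts was not computed. Over the 17 libraries Kcnj6 varied the most of the 9, with 9.77 times between its highest and lowest library, and Kcnj3 the least, with 1.61 times.

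**Figure D1:**
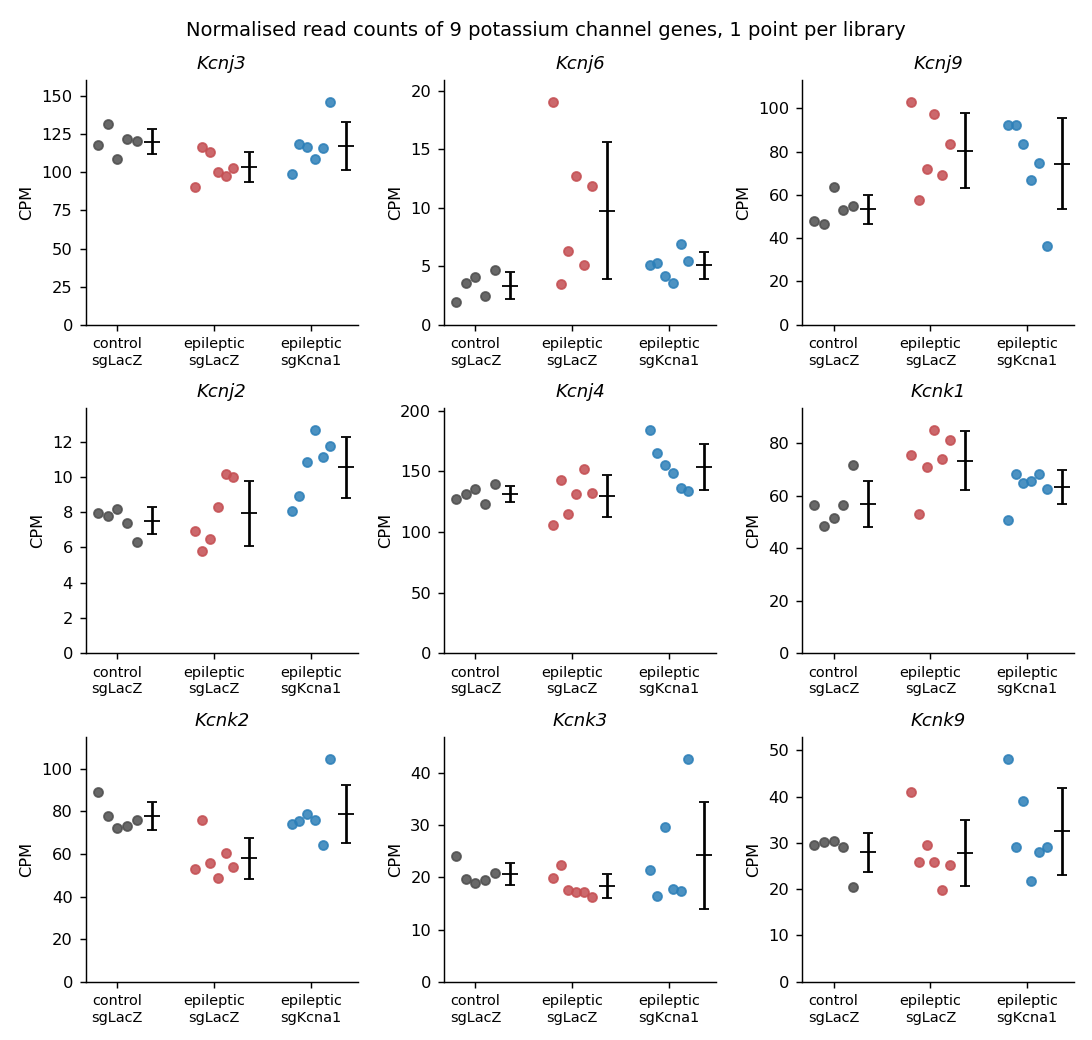
Normalised read counts (CPM, linear axis from 0) of the 9 genes in every library, with the mean and SD of each group beside its points. Kcnj6 reached 19.0 CPM in epileptic sgLacZ against at most 4.71 in controls, and Kcnk2 was lower in 5 of 6 epileptic sgLacZ libraries than in any control.

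The question of the comparison between epileptic sgLacZ and control sgLacZ libraries is which transcripts differ in the chronically epileptic hippocampus when both groups carry the control guide. Of the 9 channel genes 2 passed the test, Kcnj6, which was higher, and Kcnk2, which was lower (edgeR quasi-likelihood test, adjusted p under 0.05 over all genes), while 11% of all tested genes passed it. The gene that was higher stands beside 7.26% of all genes higher, and the gene that was lower beside 3.76% lower, so that 2 calls among 9 say little about these genes as a set. At an unadjusted p under 0.05, 5 of the 9 passed (Kcnj6, Kcnj9 and Kcnk1 higher, Kcnk2 and Kcnj3 lower), beside 34.7% of all genes (18.8% higher and 15.9% lower). Their median log2 fold change was -0.0033, against 0.020 over all genes. No gene of the 9 had groups without overlap, which 4.39% of all genes had. Neither call was firm. The number of the 9 called ranged from 0 to 5 when each library was left out in turn, beside 0 to 5526 of all genes. It was 4 without epileptic sgLacZ replicate 5 (5526 of 17650 genes) and 5 without epileptic sgKcna1 replicate 12 (4777 of 17608). Without the libraries that held both Xist and Y-linked reads it was 3 (2461 of 18079 genes). With DESeq2 it was 4 (3634 of 17601), and with the percentage of unmapped reads as a covariate 0 (428 of 17615). The count over all genes thus moved as well.

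**Figure D2:**
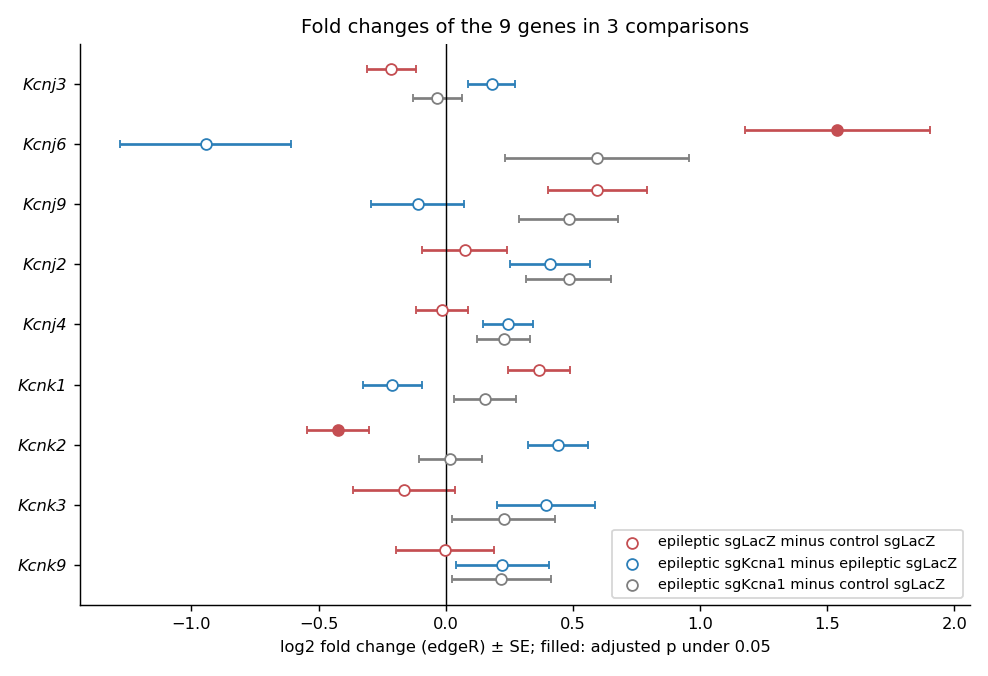
Log2 fold changes of the 9 genes with their SE from edgeR, for epileptic sgLacZ minus control (red), epileptic sgKcna1 minus epileptic sgLacZ (blue) and epileptic sgKcna1 minus control (grey). Only Kcnj6 and Kcnk2 in the first comparison are filled, meaning an adjusted p under 0.05.

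Among the GIRK subunits, Kcnj6 rose in epileptic sgLacZ hippocampus, and Kcnj9 and Kcnj3 did not pass the test. Kcnj6, the GIRK2 subunit that can form channels on its own, had 1.95, 3.58, 4.06, 2.47 and 4.71 CPM in the 5 controls. In the 6 epileptic sgLacZ libraries it had 19.0, 3.45, 6.32, 12.7, 5.15 and 11.8 CPM. All but replicate 5 lay above every control, and the group spread over a wide range, with a coefficient of variation of 60.2% against 33.9% in controls. The rise was 2.91-fold, or 1.54 ± 0.36 in log2 (SE, edgeR adjusted p = 0.033), and the exact permutation test on log2 CPM gave an unadjusted two-sided p = 0.026, where the smallest possible was 0.00216. The 3 libraries with the most Kcnj6, replicates 4, 7 and 9, were also those with the lowest percentages of unmapped reads in the group, 11.0%, 15.8% and 17.2%, against 19.5% to 27.7% in controls. With that percentage as a covariate the log2 fold change was 1.18 and the adjusted p 0.0692 (edgeR).

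Reads for Kcnj6 were few, between 36 and 559 per library. The counts of both strands added up to 1.63 times the unstranded count, the highest such ratio of the 9 genes. No RefSeq gene overlaps Kcnj6, but the annotation used for counting is not given, and an overlap in it was not tested. With both strand counts added the log2 fold change fell to 0.89 and still passed the test (edgeR adjusted p = 0.0401). The call was lost in 7 of 17 fits that each left out a library, with edgeR adjusted p between 0.0529 and 0.0923. These fits left out control replicates 13, 14, 16 and 23 and epileptic sgLacZ replicates 4, 7 and 9. In those 7 fits 0 of all genes passed. The log2 fold change stayed between 1.24 and 1.71 over all 17, and the call held in 10 of 11 other settings.

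Kcnj9, the GIRK3 subunit, which joins the other subunits in heteromers and directs channels to endosomes, had 48.2, 46.7, 63.5, 53.1 and 54.8 CPM in controls. In epileptic sgLacZ libraries it had 102.9, 57.4, 72.1, 97.4, 69.4 and 83.4 CPM. Replicate 5 was again the only library within the control range. The difference was 1.51-fold, log2 0.60 ± 0.19, and missed the threshold (edgeR adjusted p = 0.0532, exact permutation p = 0.0108 unadjusted). It passed in 6 of 11 other settings, among them DESeq2 (log2 0.58, adjusted p = 0.0277), limma voom (0.59, adjusted p = 0.00125) and both strand counts added (0.61, adjusted p = 0.0473). It also passed in 3 of 17 fits without a library, namely epileptic sgLacZ replicates 5 (log2 0.68, adjusted p = 0.0145) and 8 (0.63, adjusted p = 0.0488) and epileptic sgKcna1 replicate 12 (0.59, adjusted p = 0.00959). With the percentage of unmapped reads as a covariate the log2 value was 0.25 (adjusted p = 0.11), and 0.34 (adjusted p = 0.128) once trends with GC content and length were removed.

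Kcnj3, the GIRK1 subunit that needs a partner to reach the membrane, had 118.0, 131.8, 109.0, 121.7 and 120.5 CPM in controls. In epileptic sgLacZ libraries it had 90.7, 116.8, 113.3, 100.5, 97.8 and 103.0 CPM. In 4 of the 6 the value was below every control, and the log2 fold change of -0.21 ± 0.10 did not pass the test (edgeR adjusted p = 0.128, exact permutation p = 0.0195 unadjusted). It was -0.046 (adjusted p = 0.741) with both strand counts added and -0.11 (adjusted p = 0.402) with the percentage of unmapped reads as a covariate, and it passed with limma voom (-0.20, adjusted p = 0.0282) and without epileptic sgKcna1 replicate 12 (-0.22, adjusted p = 0.0462).

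The makeup of GIRK transcripts per length is given as a description only. Kcnj3 made up 57.7% ± 4.45 (SD, n = 5) of the summed GIRK reads per kb in controls and 43.6% ± 7.88 (n = 6) in epileptic sgLacZ libraries. The share of Kcnj9 was 40.7% ± 4.25 and 52.7% ± 6.09, and that of Kcnj6 1.43% ± 0.454 and 3.46% ± 1.77. Kcnj5, which encodes GIRK4 and is mainly a cardiac subunit, stayed at 0.707% or less in every library. These shares rest on unstranded counts, in which Kcnj6 differs most from the sum of both strands, and the shares on summed counts were not computed. Per 100 Kcnj3 reads there were 2.80 ± 1.00 Kcnj6 reads in controls, 9.82 ± 6.66 in epileptic sgLacZ and 4.35 ± 1.04 in epileptic sgKcna1 libraries.

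**Figure D3:**
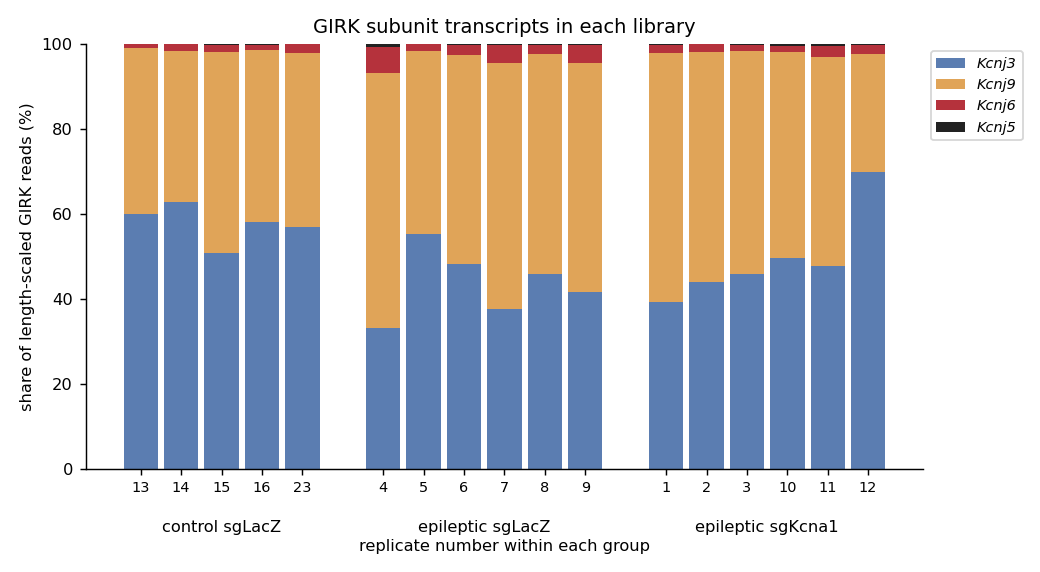
Share of each GIRK subunit gene in the summed GIRK reads per kb (percent, stacked to 100) in each of 17 libraries, by group and replicate number. Kcnj3 took 50.9% or more in every control and between 33.1% and 55.2% in epileptic sgLacZ. In epileptic sgKcna1 it took 39.3% to 49.6%, except in replicate 12, at 69.8%.

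Neither Kir2 gene passed the test between epileptic sgLacZ and control hippocampus. Kcnj4, the most abundant of the 9, had 122.7 to 139.3 CPM in controls and 105.4, 142.9, 114.7, 131.6, 152.0 and 132.5 CPM in epileptic sgLacZ libraries. The values of the epileptic group reached both above and below the controls, and the log2 fold change was -0.015 ± 0.10 (edgeR adjusted p = 0.933), with a sign that changed with scaling by total reads alone (0.055). Kcnj2 had 6.31 to 8.19 CPM in controls and 6.95, 5.80, 6.46, 8.30, 10.1 and 9.98 CPM in epileptic sgLacZ libraries, a log2 fold change of 0.075 ± 0.17 (adjusted p = 0.777). The epileptic libraries again spread to both sides of the controls.

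Of the leak channels, Kcnk2 fell in epileptic sgLacZ hippocampus and the others did not pass the test. Kcnk2 had 88.9, 78.0, 72.4, 73.2 and 76.1 CPM in controls. In epileptic sgLacZ libraries it had 52.7, 76.0, 55.9, 48.8, 60.5 and 53.8 CPM. The 5 libraries other than replicate 5 were below every control, and the level fell by 25.4%, a log2 fold change of -0.42 ± 0.12 (edgeR adjusted p = 0.0414, exact permutation p = 0.00866 unadjusted). The call was lost in 11 of the 17 fits without a library (edgeR adjusted p 0.0517 to 0.111), at log2 values from -0.52 to -0.37 over all 17. These fits left out control replicates 13, 14, 15, 16 and 23, epileptic sgLacZ replicates 4, 6, 7 and 9 and epileptic sgKcna1 replicates 3 and 10. Without control replicates 13, 14, 16 or 23 or epileptic sgLacZ replicates 4, 7 or 9, 0 of all genes passed. It was also lost with the percentage of unmapped reads as a covariate (log2 -0.27, adjusted p = 0.0778), with no filter on low counts (adjusted p = 0.0561), with sex as a covariate (0.0553) and with GC and length trends removed (0.0536). The both-strand count of Kcnk2 was 1.28 times the unstranded count, A430027H14Rik and a pseudogene lie within it, and with both strands added the log2 value was -0.51 (adjusted p = 0.0325).

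Kcnk1, the weak inward rectifying leak subunit TWIK-1, had a higher mean in epileptic sgLacZ than in control libraries and did not pass the test. It had 56.6, 48.6, 51.6, 56.6 and 71.5 CPM in controls and 75.7, 53.1, 70.9, 84.9, 74.2 and 81.4 CPM in epileptic sgLacZ libraries. In 4 of the 6 the value was above every control, and the log2 fold change of 0.37 ± 0.12 missed the threshold (edgeR adjusted p = 0.0566, exact permutation p = 0.0368 unadjusted). It passed in 4 of 11 other settings, namely with both strand counts added (log2 0.50, adjusted p = 0.035), DESeq2 (0.0381), limma voom (0.0028) and no scaling (0.0388), and also without epileptic sgLacZ replicate 5 (log2 0.44, adjusted p = 0.00742) and without epileptic sgKcna1 replicate 12 (0.0356). As a description of the 2 leak genes together, there were 1.39 ± 0.221 Kcnk2 reads per Kcnk1 read in controls (SD, n = 5), 0.828 ± 0.308 in epileptic sgLacZ (n = 6) and 1.26 ± 0.266 in epileptic sgKcna1 libraries (n = 6). This ratio rests on unstranded counts, and for both genes the summed strand counts were higher.

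Neither TASK gene passed the test between these groups. Kcnk3 had 18.9 to 24.1 CPM in controls and 19.9, 22.5, 17.5, 17.1, 17.3 and 16.2 CPM in epileptic sgLacZ libraries, and 4 of those 6 lay below every control. Its log2 fold change was -0.16 ± 0.20 (edgeR adjusted p = 0.583). Kcnk9 had 29.6, 30.1, 30.3, 29.1 and 20.5 CPM in controls and 40.9, 25.9, 29.5, 25.8, 19.9 and 25.1 CPM in epileptic sgLacZ libraries. Its groups covered much the same range, with a log2 fold change of -0.0033 ± 0.19 (adjusted p = 0.992) whose sign changed under 5 of 11 other settings and in 8 of 17 fits without a library.

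**Figure D4:**
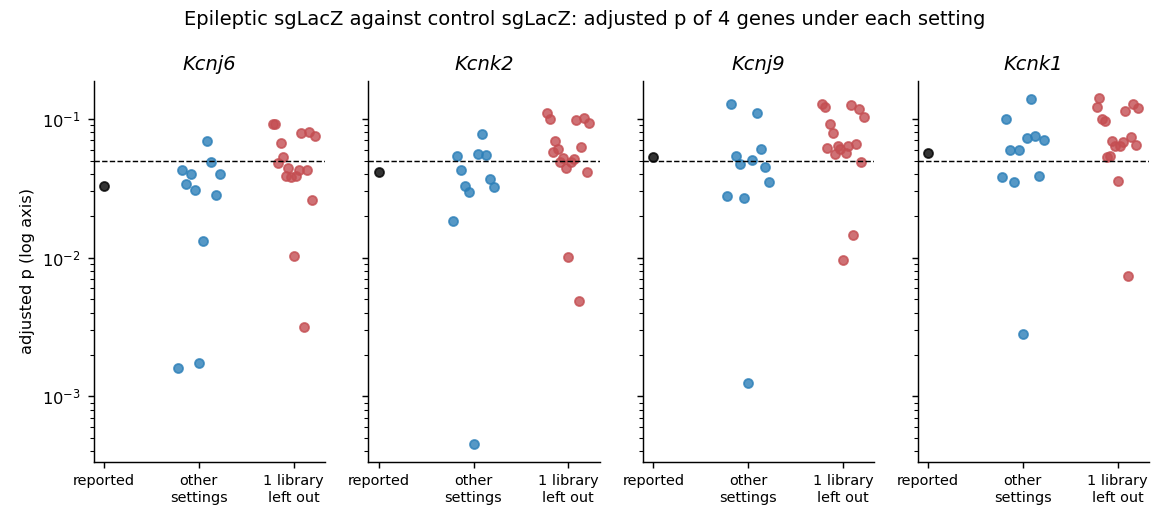
Adjusted p (log axis, dashed line at 0.05) of 4 genes for epileptic sgLacZ against control, as reported, under 11 other settings and in 17 fits that each left out a library. Points of Kcnj6 and Kcnk2 lie on both sides of the line, and so do those of Kcnj9 and Kcnk1, which were above it as reported.

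The comparison of epileptic sgKcna1 with epileptic sgLacZ libraries asks what the Kcna1 guide changes in epileptic mice. None of the 9 genes passed the test (edgeR), nor did any of the 17615 genes (0%). At an unadjusted p under 0.05, 4 of the 9 passed (Kcnk2, Kcnj2 and Kcnj4 higher, Kcnj6 lower), beside 19.2% of all genes (8.69% higher and 10.5% lower). DESeq2 called 0 of the 9 and 134 of all genes, and limma voom 0 and 12. No gene of the 9 had groups without overlap, which 0.483% of all genes had. This comparison shares the epileptic sgLacZ libraries with the one above, so opposite values for Kcnj6 and Kcnk2 in the 2 comparisons rest partly on the same 6 libraries.

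Kcnj6 had 5.10, 5.30, 4.17, 3.55, 6.92 and 5.41 CPM in the 6 epileptic sgKcna1 libraries. They lay inside the range of the epileptic sgLacZ group and nearer its lower end, and the spread was smaller, with a coefficient of variation of 22.8%. The log2 fold change against epileptic sgLacZ was -0.94 ± 0.33 (edgeR adjusted p = 0.213, exact permutation p = 0.11 unadjusted). Kcnk2 had 73.9, 75.3, 78.9, 75.8, 64.0 and 104.6 CPM in epileptic sgKcna1, where replicate 12 was the highest of all libraries. Its log2 fold change was 0.44 ± 0.12 (adjusted p = 0.213, exact permutation p = 0.0108 unadjusted). Without epileptic sgLacZ replicate 5 both passed the test (Kcnj6 log2 -1.12, adjusted p = 0.0421, Kcnk2 log2 0.53, adjusted p = 0.0377), and 1508 of all genes did.

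The Kir2 genes had higher means in epileptic sgKcna1 than in either other group without passing the test. Kcnj2 had 8.09, 8.92, 10.8, 12.6, 11.1 and 11.8 CPM, of which 4 lay above every epileptic sgLacZ library and 5 above every control. The log2 fold change was 0.41 ± 0.16 against epileptic sgLacZ (edgeR adjusted p = 0.217, exact permutation p = 0.0346 unadjusted) and 0.48 ± 0.17 against controls (adjusted p = 0.674, exact permutation p = 0.0108 unadjusted). Kcnj4 had 183.6, 165.4, 154.7, 148.6, 136.1 and 133.4 CPM, with log2 fold changes of 0.24 ± 0.10 (adjusted p = 0.226) and 0.23 ± 0.10 (adjusted p = 0.711). Of its 6 values, 3 were above every epileptic sgLacZ library and 4 above every control.

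The other genes gave smaller or more scattered values in epileptic sgKcna1 libraries. Kcnj9 had 92.5, 92.2, 83.7, 66.7, 74.8 and 36.4 CPM, the last in replicate 12, below every other library of the series, and a log2 fold change of -0.11 ± 0.18 against epileptic sgLacZ (edgeR adjusted p = 0.744), which was 0.022 without replicate 12. Kcnj3 had 98.9, 118.9, 116.4, 108.9, 116.2 and 146.2 CPM, the last in replicate 12, and a log2 fold change of 0.18 ± 0.09 (adjusted p = 0.284). Kcnk1 had 50.9, 68.4, 64.7, 65.6, 68.4 and 62.4 CPM, between the means of the other groups for 5 of 6 libraries, and a log2 fold change of -0.21 ± 0.12 (adjusted p = 0.309). Neither TASK gene passed here, and both values moved by more than 1.5 times without 1 library. Kcnk3 had 21.5, 16.5, 29.8, 17.8, 17.5 and 42.7 CPM with replicate 12 the highest, log2 0.39 ± 0.19 (adjusted p = 0.268), with replicates 3 and 12 above every epileptic sgLacZ library, and without replicate 12 the log2 value was 0.16. Kcnk9 had 48.1, 29.1, 39.0, 21.7, 28.1 and 29.0 CPM with replicate 1 the highest, log2 0.22 ± 0.18 (adjusted p = 0.479). The Kcnk9 value was 0.077 without that replicate, 0.14 without epileptic sgLacZ replicate 8 and 0.37 without epileptic sgLacZ replicate 4.

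The third comparison, epileptic sgKcna1 with control sgLacZ libraries, asks how far treated epileptic hippocampus stood from hippocampus without epilepsy. None of the 9 genes passed, nor did any of all genes (edgeR, 0%), while DESeq2 called 0 of the 9 and 39 of all genes, and limma voom 0 and 71. At an unadjusted p under 0.05, 3 of the 9 passed, all higher (Kcnj2, Kcnj4 and Kcnj9), beside 6.77% of all genes (4.29% higher and 2.48% lower), and no gene of the 9 had groups without overlap, which 1.14% of all genes had. The log2 fold change of Kcnj6 was 0.60 ± 0.36 (adjusted p = 0.766), with 4 of 6 libraries above every control. For Kcnj9 it was 0.48 ± 0.19 (adjusted p = 0.683), with 5 of 6 libraries above every control and replicate 12 below them all, and with the percentage of unmapped reads as a covariate it was 0.50 and passed (adjusted p = 0.0162). Kcnk2 stood at 0.018 ± 0.12 (adjusted p = 0.978), Kcnk1 at 0.16 ± 0.12 (0.803) and Kcnj3 at -0.033 ± 0.10 (0.95). Kcnk3 and Kcnk9 stood at 0.23 ± 0.20 and 0.22 ± 0.19 (adjusted p = 0.818 for each). The median of the 9 was 0.23 here and 0.22 against epileptic sgLacZ, beside 0.016 and -0.0059 over all genes.

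Likeness was measured as the root-mean-square difference of log2 CPM, centred over the 17 libraries, among 11383 genes with a mean of at least 5 CPM. It was not scaled by the spread of each gene. The nearest gene was Tspyl1 for Kcnj3 (0.080), Cdk10 for Kcnk2 (0.079), Rab15 for Kcnj9 (0.11), Fam3c for Kcnj4 (0.11), Trim11 for Kcnk1 (0.12), Luzp2 for Kcnk9 (0.19), Cdkn1a for Kcnj2 (0.22) and Fam59a for Kcnj6 (0.27). For Kcnk3 it was Kcna2 (0.13), which encodes the voltage-gated subunit Kv1.2. Among the 9 themselves Kcnj3 and Kcnk2 had the smallest distance (0.19). The member nearest to Kcnj6 was Kcnj9 (0.61), a distance larger than that between any other gene and its nearest member. The SD of log2 CPM over the 17 libraries was 0.16 for Kcnj3, below its distance to Kcnk2, and 0.80 for Kcnj6. These distances follow the spread of each gene as well as its pattern.

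The other channels of the families and the genes that act on these channels were taken from 5 lists. Their calls were no firmer than those above: each of the 11 genes called was called in 2 to 10 of the 17 fits without a library. In the fits named for the lost call of Kcnj6, 0 of all genes passed. In epileptic sgLacZ against control libraries 11 of their 82 tested genes passed the test, 10 higher and 1 lower, with a median log2 fold change of 0.15. Of all genes 11% passed, 7.26% higher and 3.76% lower, with a median of 0.020, so the count over the 5 lists stands near that background. Of the other Kcnj and Kcnk genes 1 of 13 passed. This was Kcnj12, which encodes Kir2.2, at 3.60 to 4.54 CPM in controls and 5.00 to 11.3 in epileptic sgLacZ (log2 0.86 ± 0.21, edgeR adjusted p = 0.0333), with all 6 epileptic libraries above every control. Its call was lost with percent unmapped (log2 0.66) or sex (0.80) as a covariate and with GC and length trends removed (0.72). The median of the 13 was 0.49. Kcnj10, the Kir4.1 channel of astrocytes, was at 0.44 ± 0.18 and did not pass (edgeR adjusted p = 0.0978). Summed astrocyte markers were also higher in these libraries, and a link with Kcnj10 was not tested.

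Gi/o-coupled receptors, which open GIRK channels, had 6 of 19 tested genes past the threshold, all higher, beside 7.26% of all genes higher, with a median log2 fold change of 0.25 against 0.020 over all genes. The somatostatin receptor genes Sstr4, Sstr1 and Sstr3 had log2 fold changes of 3.57 ± 0.82, 2.51 ± 0.62 and 0.46 ± 0.14 (edgeR adjusted p = 0.0324, 0.033 and 0.0429). Sstr4 rested on few reads, with 0.0541 to 1.17 CPM in controls and 0.522 to 17.5 in epileptic sgLacZ libraries. Sstr1 was also low, with 0.416 to 3.39 CPM in controls and 1.83 to 18.7 in epileptic sgLacZ libraries, and its groups overlapped. The muscarinic receptor gene Chrm4 stood at 2.44 ± 0.59 (adjusted p = 0.033), with 0.708 to 3.18 and 1.83 to 16.1 CPM. Gabbr2, the signalling subunit of the GABA-B receptor, had 86.3 to 110.7 CPM in controls and 96.0 to 312.7 in epileptic sgLacZ (0.76 ± 0.23, adjusted p = 0.0435), and 4 of 6 libraries were above every control. Htr1a, a serotonin receptor gene, had 18.7 to 21.0 and 23.7 to 40.3 CPM without overlap (0.51 ± 0.16, adjusted p = 0.0461). With the percentage of unmapped reads as a covariate 5 of these 6 calls were lost (edgeR), with log2 values of 1.46 for Sstr4, 1.61 for Sstr1, 0.44 for Sstr3, 0.46 for Gabbr2 and 0.33 for Htr1a, and Chrm4 kept its call at 1.28. With GC and length trends removed the calls of Sstr3 (log2 0.16), Gabbr2 (0.38) and Htr1a (0.31) were lost. The same 3 were lost with sex as a covariate (0.41, 0.71 and 0.53). They were also lost without the libraries holding both Xist and Y-linked reads (0.43, 0.79 and 0.49). Gabbr2 lost its call with the compared groups alone (0.76), and Sstr3 (0.48) and Htr1a (0.53) with no filter on low counts.

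Among GIRK regulators 1 of 20 passed, beside 11% of all genes, with a list median of 0.095. It was Gng2, a G protein γ subunit (log2 1.08 ± 0.25, edgeR adjusted p = 0.033). Its both-strand count was 2.98 times the unstranded count, and with both strands added its log2 value was -0.21 (adjusted p = 0.0748), so that its direction changed with the strand counts used. In Gq-coupled signalling, which lowers PIP2 and closes leak and inward rectifier channels, 3 of 13 passed, beside the same 11%, with a list median of 0.034. Pip5k1c and Pi4ka, lipid kinases of PIP2 synthesis, rose (1.03 ± 0.25 and 0.89 ± 0.23, adjusted p = 0.033 and 0.0346), and Gnaq, the Gq α subunit, fell (-0.70 ± 0.22, adjusted p = 0.0499). Calls were lost for Pi4ka with percent unmapped (log2 0.64) or sex (0.83) as a covariate, for Pip5k1c with GC and length trends removed (0.68), and for Gnaq with RLE scaling (-0.71), sex (-0.78) and GC and length trends removed (-0.82). With percent unmapped as a covariate Pip5k1c (0.58) and Gnaq (-0.39) kept their calls at smaller values. Of the anchoring and trafficking partners of Kir2 and leak channels 0 of 17 passed with edgeR, and 7 had an unadjusted p under 0.05, beside 34.7% of all genes, with a list median of 0.071. The smallest p was that of Dlg2, the scaffold PSD-93 (0.80 ± 0.26, adjusted p = 0.0511).

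**Figure D5:**
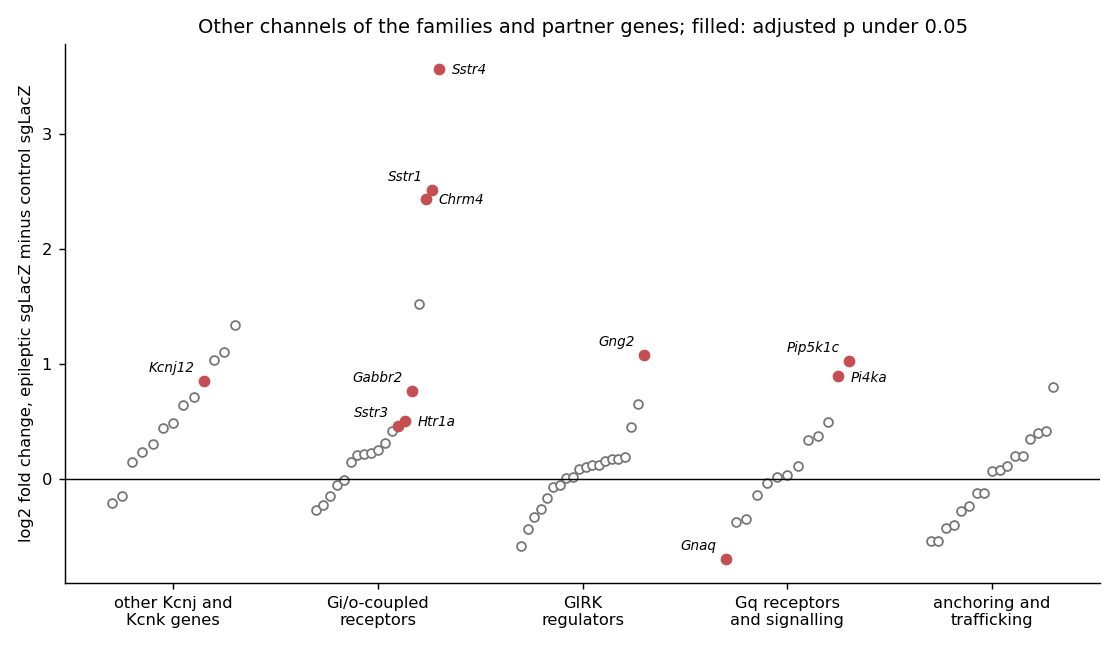
Log2 fold change of epileptic sgLacZ minus control for each of 82 tested genes in 5 lists, 1 point per gene in order of its value, filled and named where the adjusted p was under 0.05. All 6 filled points among the Gi/o-coupled receptors lie above 0, and Gnaq is the only filled point below it.

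In the other comparisons 0 of these 82 genes passed with edgeR, and DESeq2 called 1 in each. At an unadjusted p under 0.05, 21 did so between the epileptic groups (7 higher and 14 lower), beside 19.2% of all genes (8.69% higher and 10.5% lower). For epileptic sgKcna1 against controls 15 did so (13 higher and 2 lower), beside 6.77% of all genes (4.29% higher and 2.48% lower). Between the epileptic groups the smallest p of each list belonged to Kcnj10 (log2 -0.45 ± 0.17), Sstr4 (-2.75 ± 0.72), Rgs4 (0.56 ± 0.14), Pi4ka (-0.64 ± 0.21) and Cyth2 (0.43 ± 0.15), with edgeR adjusted p of 0.213 to 0.217. Rgs4, which speeds the closing of GIRK channels by acting on G protein α subunits, also had the smallest p of its list against controls (0.65 ± 0.14, adjusted p = 0.252). The other smallest p there belonged to Kcnk13 (-0.40 ± 0.15), Npy2r (-0.51 ± 0.14), Htr2a (0.40 ± 0.18) and Dlg1 (0.27 ± 0.11), with edgeR adjusted p of 0.674, 0.449, 0.711 and 0.695.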

How the data were processed

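RNA-seq reads were aligned to mm10 with STAR 2.7 and counted per gene by the authors, and the deposited files hold raw counts in 3 columns, unstranded and for each strand. The labels name an unstranded library kit and the methods a stranded one. The strand columns were nearly equal (ratio 0.994 to 0.998), so the unstranded count was used. The 4 summary lines were kept out of library sizes (unmapped reads 11.0% to 41.5%). Groups came from the labels. edgeR 4.0.16 (R 4.3.3, filterByExpr, TMM, quasi-likelihood test, 17 libraries in 1 fit) gave log2 fold changes, SE and Benjamini-Hochberg adjusted p over 17615 genes, with a threshold of 0.05. Exact two-sided permutation tests used log2 CPM (prior count 2). The alternatives included DESeq2 1.42.0 and limma 3.58.1, and 2 were added after seeing the data: leaving out the libraries with Xist and Y-linked reads, and removing GC and length trends (83.0% of tested genes had both values). Sex was called from Xist and Y-linked reads. Scripts were tested on simulated data. Promoters and coordinates came from RefSeq, GRCm38.p6, and exon lengths from a GENCODE annotation of an earlier mouse genome build. Outside the 9 genes, the text names the called genes of each list (at most 6) or, with none called, the gene of smallest p, and Kcnj10 and Kcnj5 were named after their values were seen. The members and lists were chosen with earlier results of these data known.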

Additional observations from a re-analysis of the deposited data

Results flagged for a closer look

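Of 30 sets of replicate values (9 channel genes and Kcna1 in 3 groups), 4 held a library whose gap to its nearest neighbour was large for the range of its group, where chance gives about 1 in 20. Kcnk1 was lowest in epileptic sgKcna1 replicate 1, at 50.9 CPM with the nearest library at 62.4. Kcnk2 was highest in epileptic sgKcna1 replicate 12, at 104.6 CPM with the nearest at 78.9. Kcnk9 was lowest in control replicate 23, at 20.5 CPM with the nearest at 29.1. Kcna1 was highest in epileptic sgKcna1 replicate 12, at 132.5 CPM with the nearest at 29.5.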

How the results depend on the processing

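Of 572 fold changes recomputed under 11 other settings, 490 kept direction and side of the threshold, 31 lost and 23 gained the call and 28 changed sign. Of 884 without 1 library, these were 726, 120, 16 and 22. The causes were not tested. For epileptic sgLacZ against control, the 9 genes, the 82 list genes and all genes called numbered 4, 22 and 3634 with DESeq2, 5, 39 and 7301 with limma voom, 0, 4 and 428 with percent unmapped as a covariate, 1, 5 and 516 with sex, and 1, 7 and 404 with GC and length trends removed. The compared groups alone gave 21 list genes and 3045 of all. Of the 9, no scaling gave 4 (2431 of 17615 genes), both strands added 4 (2740 of 19308) and no filter 1 (1623 of 35797). Between the epileptic groups, all genes called were 134 (DESeq2), 12 (voom), 1 (no filter) and 4 (without libraries with Xist and Y-linked reads), and list genes 1 (DESeq2). For epileptic sgKcna1 against control, all genes were 39, 71 and 266 with DESeq2, voom and percent unmapped, list genes 1, 1 and 6, and 1 of the 9 with percent unmapped. Without 1 library, the 3 comparisons in this order gave 0 to 5, 0 to 2 and 0 of the 9 genes, 0 to 30, 0 to 10 and 0 list genes, and 0 to 5526, 0 to 1508 and 0 to 14 of all genes.

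Signs changed as follows, in log2. For epileptic sgLacZ against control, Kcnj4 was 0.055 (no scaling), 0.0037 (no filter) and 0.024 (sex), Kcnk9 0.070, 0.023 and 0.0086 under the same 3, 0.0080 without libraries with Xist and Y-linked reads and 0.27 with GC and length trends removed, Kcnk3 0.086 and Kcna1 0.44 with percent unmapped, and Gng2 -0.21 with both strands added. Between the epileptic groups, Kcnj9 was 0.24 (percent unmapped), 0.0031 (without libraries with Xist and Y-linked reads) and 0.037 (GC and length), and Kcna1 -0.31 (voom), -0.85 (percent unmapped) and -0.50 (without those libraries). Against control, epileptic sgKcna1 gave for Kcnk2 -0.055 (voom), -0.028 (both strands), -0.023 (percent unmapped), -0.048 (without those libraries) and -0.021 (GC and length), for Kcnk3 -0.029 (voom), and for Kcna1 -0.82 (voom), -0.41 (percent unmapped), -0.13 (sex), -0.74 (without those libraries) and -0.0092 (GC and length). Without 1 library, values that changed sign ranged for epileptic sgLacZ against control over -0.0068 to 0.15 (Kcnj2), -0.065 to 0.038 (Kcnj4) and -0.15 to 0.077 (Kcnk9), between the epileptic groups over -0.19 to 0.022 (Kcnj9) and -0.65 to 0.62 (Kcna1), and for epileptic sgKcna1 against control over -0.11 to 0.013 (Kcnj3), -0.087 to 0.072 (Kcnk2), -0.011 to 0.32 (Kcnk3) and -0.87 to 0.29 (Kcna1). No paired analysis was possible because the groups share no replicate numbers.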
